A study of Rattus norvegicus with 19 samples.

Results

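Ribosomal protein and translation factor genes were examined in rat trigeminal nerve tumours and in trigeminal nerve labelled untreated. The probes were those whose gene symbol starts with Rpl or Rplp, Rps (leaving out the Rps6k kinases), Eif or Eef followed by a digit, and that were detected (p under 0.05) on 3 or more of the 19 arrays. The rule kept 109 of 115 such probes, for 108 symbols, among 13116 probes kept of 21791 on the array. They were 40 of 43 probes of the large subunit, 22 of 23 of the small subunit, 36 of 38 named for initiation factors and all 11 named for elongation factors. The 6 probes left out were those of Rpl11, Rpl34, Rpl36a, Rps19, Eif1ax and Eif2a, each detected on at most 1 array. Of the kept probes, 96 were detected on all arrays and 13 on some. The symbols also bring in enzymes and binding partners that regulate or modify a factor, among them the Eif2ak kinases, the Eif4ebp inhibitors, Eef2k, the Eef1akmt methyltransferases and Rps19bp1, and these were counted in the class of their symbol.

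Arrays were made of 12 malignant peripheral nerve sheath tumours (MPNST) and 1 microtumour from rats given the alkylating agent N-ethyl-N-nitrosourea (ENU) on postnatal day 1, at a dose of 80 µg per g. They were compared with 6 pools of trigeminal nerve from rats 85 days old. These pools carry the treatment tag untreated, which was used here, although the protocol text attached to them names the ENU injection too, so that the labels disagree on the nerve samples. Of the MPNST 2 came from BDIV rats, 7 from the BDIV and BDIX F1 hybrid, 1 from the congenic strain BDIX.BDIV-Mss4a and 2 from BDIX, and 6 from each sex. The microtumour came from a male BDIX.BDIV-Mss4a rat, and 1 male and 1 female nerve pool each came from BDIV, BDIX.BDIV-Mss4a and BDIX, so that the F1 hybrid had no nerve pool. Each tumour array held 1 tumour, whereas nerve arrays vary only as pools do.

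A ribosome is built from a large and a small subunit, each a scaffold of ribosomal RNA covered with ribosomal proteins. Initiation factors bring the small subunit, the initiator tRNA and the capped mRNA together, and elongation factors then carry each aminoacyl-tRNA into the ribosome and move it along the message. Many mRNAs of ribosomal proteins and elongation factors begin with a run of pyrimidines (a terminal oligopyrimidine tract), through which the kinase mTOR regulates their translation. Some factors have a second form that neurons use.

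Between 44.1% and 54.1% of all probes were detected on each array. The arrays fell into 2 ranges by the lower quartile of their raw signal, which was 80.4 to 94.6 on 11 high-background arrays (MPNST 1 to 8 and 10, nerve 1 and 2) and 59.0 to 67.5 on the 8 low-background arrays (MPNST 9, 11 and 12, the microtumour and nerve 3 to 6). With the tissue held constant, 51 of the 109 probes differed between these ranges, where 25.2% of all 13116 probes did. Both BDIV tumours were low-background and both BDIX tumours high-background arrays, and both BDIX.BDIV-Mss4a nerve pools were high-background and both BDIX pools low-background arrays, so that strain and background cannot be told apart in those contrasts. MPNST 4, labelled BDIX, had an Rpl30 level of 10.80, like the F1 hybrid tumours and unlike MPNST 3, the other BDIX tumour, and is called the tumour labelled BDIX. A wider set held 54 probes with a gap of at least 1 between the BDIV arrays and the BDIX and BDIX.BDIV-Mss4a nerve pools. Over these, MPNST 4 was nearer BDIV for 38 and MPNST 3 for 36. The BDIX.BDIV-Mss4a tumour was nearer BDIV for 40 and the F1 hybrid tumours for 38 to 50. The set did not separate the BDIX.BDIV-Mss4a tumour from the F1 hybrid tumours, so that it cannot decide on the label of MPNST 4. Nerve 4, the female BDIX pool, had the lowest mean of the ribosomal protein probes of all 19 arrays. Without MPNST 4, the MPNST and nerve comparison kept class medians of 0.35 for the large and 0.48 for the small subunit.

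Marker genes of other cells moved with the tissues. In MPNST, 9 of 10 sensory neuron markers were lower (mean level per array 7.34 to 9.13 in MPNST, 11.34 in the microtumour and 11.61 to 12.74 in nerve, on a log2 scale), with the probe of Calca detected in no nerve pool. Of 7 Schwann cell and myelin markers 5 were lower and 2 higher (10.05 to 11.46 in MPNST against 11.80 to 13.28 in nerve), all 4 macrophage markers were higher (10.74 to 12.52 in MPNST against 8.28 to 9.86 in nerve), and all 5 cell cycle markers were higher (9.83 to 11.61 in MPNST against 8.24 to 8.69 in nerve). Skeletal muscle markers averaged 10.52 and 10.32 in MPNST 2 and 10, at most 7.57 in the other MPNST and 7.37 to 7.88 in nerve. Of the other lists, 2 of 2 endothelium, 2 of 4 fibroblast and 2 of 3 red blood cell markers were lower, and none was higher. The 3 T cell markers and the 1 B and plasma cell marker were not called. The part of these cells in the differences below was not tested except where a value is given, and in tissue RNA a change in the number of cells of a type cannot be told apart from a change in RNA per cell.

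The comparison of MPNST with nerve asked which parts of the translation machinery were higher or lower in tumours. Of the ribosomal protein probes more were called higher than lower, initiation factor probes were called both ways, and the elongation factor Eef1a2 had the largest difference of the 109 probes. In limma's moderated test with Benjamini-Hochberg adjustment over all 13116 probes, 47 of the 109 probes were higher and 7 lower in MPNST, where 42.7% of all probes were called, 22.5% higher and 20.1% lower. By class, 20 of 40 large subunit probes rose and 1 fell (median difference 0.35 on the log2 scale), 14 of 22 small subunit probes rose and none fell (0.50; none was lower at an unadjusted p under 0.05 either), 11 of 36 initiation factor probes rose and 4 fell (0.08), and 2 of 11 elongation factor probes rose and 2 fell (0.17). The median over all 13116 probes was 0.02. For 15 probes every MPNST exceeded every nerve pool (4 large subunit, 6 small subunit and 5 initiation factor probes), as for 7.62% of all probes, and for Eif1b and Eef1a2 every MPNST lay below, as for 7.96%.

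These counts moved with the scaling of the arrays, while the small and large subunits kept the highest medians. With each array scaled to its median in place of quantile normalization, 7 large subunit probes rose and 2 fell, 5 small subunit probes rose and none fell, 6 initiation factor probes rose and 6 fell, and 1 elongation factor probe rose and 2 fell, with medians of 0.17, 0.29, -0.04 and 0.06. Over all probes that scaling turned 2953 higher and 2641 lower calls into 1506 and 3213, so that 31.9% in place of 52.8% of calls were higher. Within the high-background arrays 21 large subunit and 15 small subunit probes rose and none fell (medians 0.35 and 0.51), where 1691 of all 13116 probes rose and 1984 fell. Those arrays held 9 MPNST, of which 1 was BDIX.BDIV-Mss4a, and 2 nerve pools, both BDIX.BDIV-Mss4a, so that differences there mix strain with tissue. Within the low-background arrays, with 3 MPNST and 4 nerve pools, 5 and 3 rose and none fell, the medians were 0.47 and 0.54, and 1219 of all probes rose and 986 fell. Among the probes named below, Rpl36al1, Rplp0, Rps15, Rps26, Rps14, Eif4e2, Eif4e3, Eif4ebp1 and Eef2k kept their direction but were not called within those 7 arrays. Without nerve 4 the medians were 0.29 for the large and 0.39 for the small subunit, with 18 and 12 probes higher and 2 and 0 lower. Without the 2 MPNST that held muscle markers they were 0.39 and 0.48, with 19 and 14 probes higher.

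**Figure D1:**
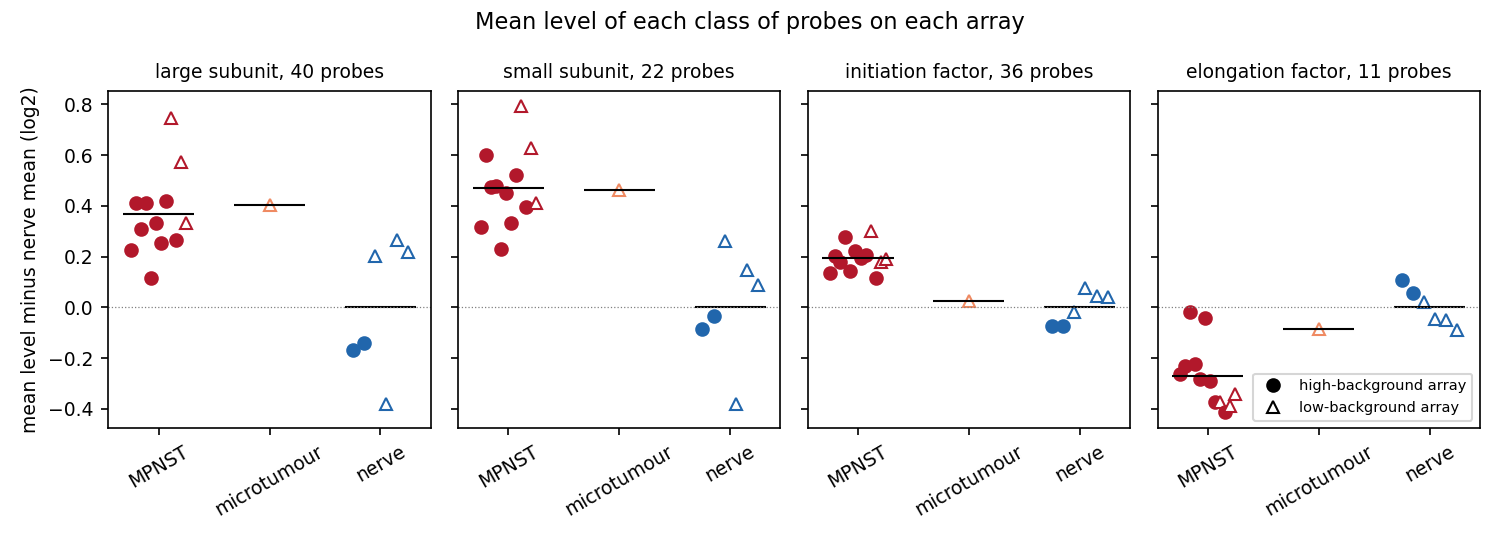
Mean log2 level of the probes of each class on each array, minus the mean of the 6 nerve pools. Points are arrays, lines are group means, and filled circles and open triangles mark high-background and low-background arrays. The large subunit mean ran between 0.12 and 0.75 in MPNST and between -0.38 and 0.27 in nerve, and the nerve pool at -0.38 is nerve 4.

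Averaged over the probes of a class on each array, the small subunit mean lay 0.23 to 0.79 above the nerve mean in MPNST (median 0.46), at 0.46 in the microtumour, and between -0.38 and 0.26 in the nerve pools. The lowest MPNST thus overlapped the highest nerve pool. The initiation factor mean was 0.12 to 0.30 in MPNST, 0.03 in the microtumour and -0.07 to 0.08 in nerve, and the MPNST and nerve ranges did not overlap. The elongation factor mean was -0.41 to -0.02 in MPNST, -0.09 in the microtumour and -0.09 to 0.11 in nerve, with Eef1a2 as 1 of its 11 probes.

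**Figure D2:**
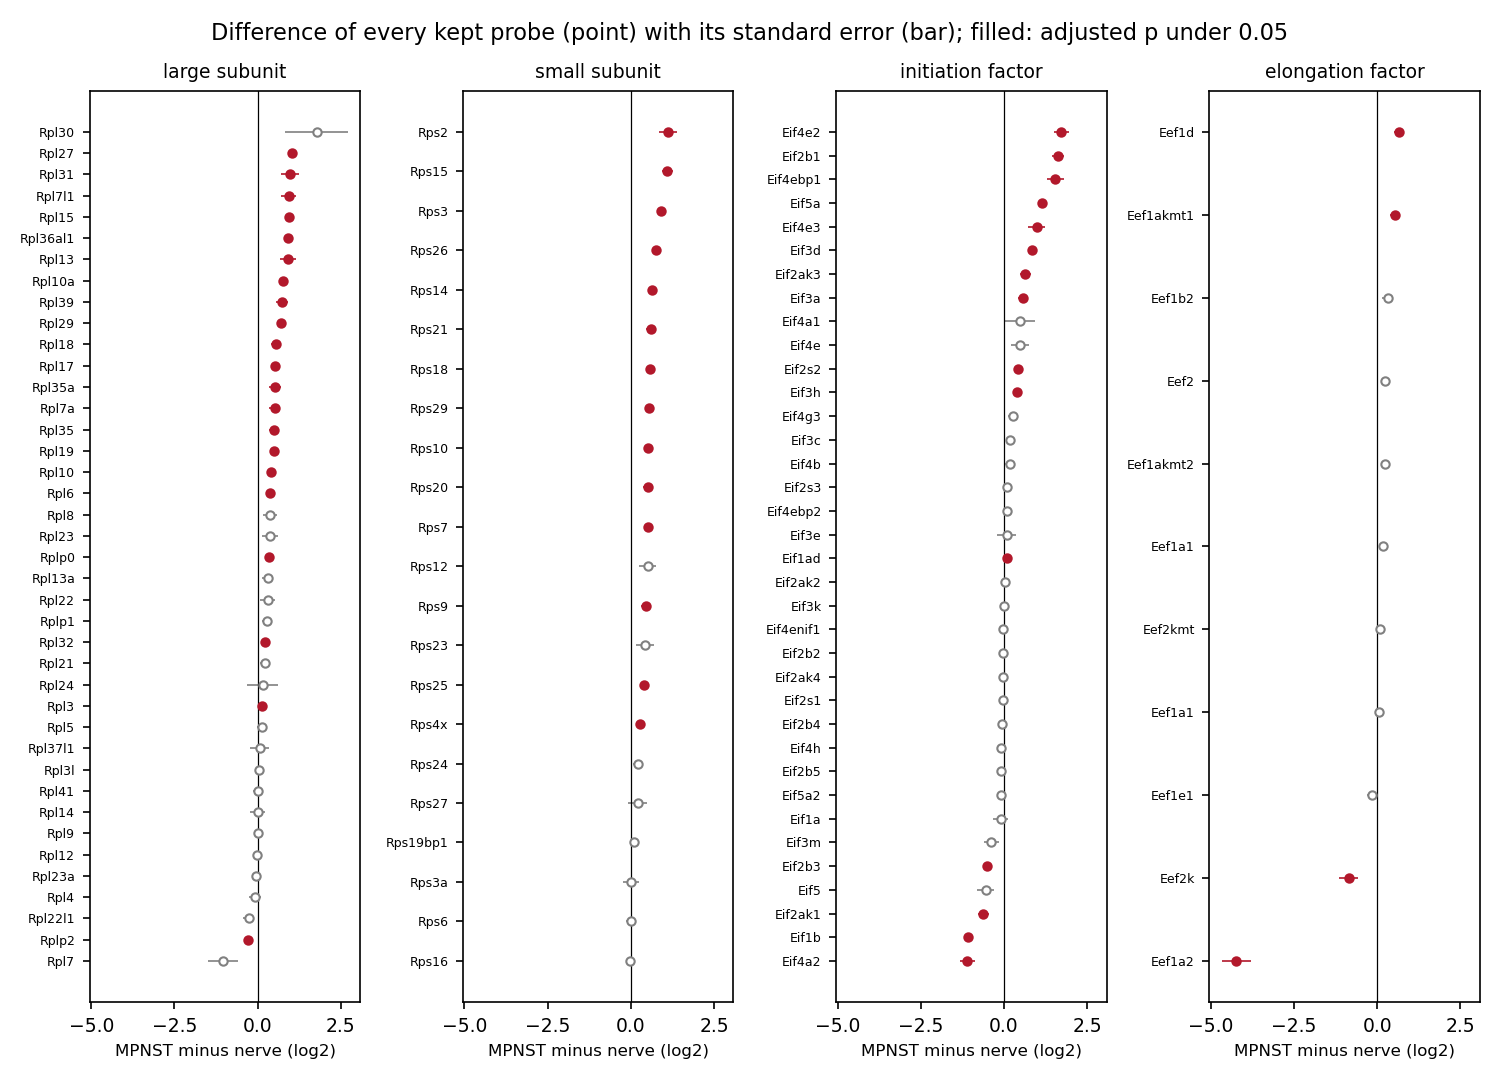
Difference between MPNST and nerve on the log2 scale for each of the 109 kept probes, ordered within its class, with its standard error as a bar. Filled points passed the adjusted p of 0.05, and the points of the small subunit lie between -0.03 and 1.12.

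Rpl27, a structural protein of the large subunit, had the largest difference among its probes that rose. Its level was 13.76 to 14.28 in MPNST (median 14.15), 13.94 in the microtumour and 12.42 to 13.34 in nerve (median 13.16). Every MPNST lay above every nerve pool, and the lowest pool was nerve 4. The rise was 2.04-fold, a log2 difference of 1.03 ± 0.11 (SE of the fit to 12 MPNST and 6 pools, limma adjusted p = 1.42e-06), and by 0.90 without nerve 4. Rpl15 had a level of 9.36 to 10.11 in MPNST (median 9.56) and 8.47 to 8.95 in nerve (median 8.68). The tissues again did not overlap, the microtumour at 8.55 lay among the nerve pools, and Rpl15 rose by 0.93 ± 0.11 (limma adjusted p = 3.96e-06). Rpl36al1 rose by 0.91 ± 0.14, with no overlap between MPNST (12.19 to 12.66) and nerve (10.70 to 11.96).

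Rpl7 had the lowest difference of the large subunit, -1.03, and was not called, with 8.80 to 11.83 in MPNST and 9.71 to 12.03 in nerve. With the tissue held constant, the background ranges differed by -1.56 ± 0.30 for Rpl7, high minus low. A larger share of the MPNST than of the nerve pools were high-background arrays, so that the -1.03 mixes background with tissue. Its paralogue Rpl7l1 rose by 0.94 ± 0.23, with 12.19 to 13.45 in MPNST and 11.49 to 12.66 in nerve. Its high-background MPNST (13.22 to 13.45) lay above its low-background MPNST (12.19 to 12.61), and within the low-background arrays the difference was 0.45 (limma adjusted p = 0.213). Rpl31 rose by 0.96 ± 0.27 (limma adjusted p = 0.0073), with 8.87 to 10.74 in MPNST against 7.95 to 9.48 in nerve. Its groups overlapped, and with median scaling its difference was 0.60 (limma adjusted p = 0.0894). It was not called within either background range, with differences of 0.63 on the high-background and 0.60 on the low-background arrays. Rplp0, the core of the ribosomal stalk, was the brightest probe of the array in 9 MPNST, which therefore share 1 normalized level of 15.29, against 14.72 to 14.96 in nerve. It rose by 0.33 ± 0.08 (limma adjusted p = 0.0024), a value limited by that ceiling. With median scaling, which sets no ceiling, the difference was 0.44 (limma adjusted p = 0.233). Those 9 were the high-background MPNST, and with the tissue held constant the ranges differed by 0.28 ± 0.05, high minus low. With background as a block the rise was 0.21 (limma adjusted p = 0.0021). Among low-background arrays the level was 14.77 to 14.99 in MPNST and 14.72 to 14.92 in nerve, and Rplp0 was not called. Nor was it called with the authors' values or over the strains with nerve pools alone. The raw Rplp0 signal was 29072 to 53104 in MPNST and 27815 to 35335 in nerve.

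Rplp2, which forms the tip of the stalk with Rplp1, was the only large subunit probe called lower, by 0.28 ± 0.09. It was dim, with 7.25 to 7.51 in MPNST against 7.35 to 8.08 in nerve, and detected in 10 of 12 MPNST. Both BDIV pools, at 8.03 and 8.08, lay apart from the other pools, and the call was lost when either was left out and within both background ranges. Among paralogous pairs, Rpl3 differed by 0.13 ± 0.05 (limma adjusted p = 0.0376) over all arrays, but by -0.052 within the low-background arrays. Its call was lost in 9 of 18 fits that left out 1 array, with the replicate block, with median scaling (0.18, limma adjusted p = 0.224) and with background as a block (0.12, limma adjusted p = 0.0663). Its paralogue Rpl3l differed by 0.02 ± 0.04. Rpl22 differed by 0.30 ± 0.22 and Rpl22l1 by -0.27 ± 0.15, and neither passed the threshold.

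Rps15, a protein of the small subunit, rose with no overlap between the tissues. Its level was 12.80 to 13.78 in MPNST (median 13.20), 12.69 in the microtumour and 11.33 to 12.60 in nerve (median 12.29). All 12 MPNST lay above all nerve pools and above the microtumour. Rps15 rose 2.14-fold, by 1.10 ± 0.16 (limma adjusted p = 3.34e-05). Rps2 had the largest difference of the class, 1.12 ± 0.27 (limma adjusted p = 0.0027), with 10.18 to 12.02 in MPNST and 9.25 to 10.31 in nerve. Its ranges overlapped, the highest MPNST were the low-background ones (11.31 to 12.02), and with median scaling the difference was 0.80 (limma adjusted p = 0.0879).

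Rps3, which lines the channel where mRNA enters, rose by 0.90 ± 0.13, with 13.45 to 14.15 in MPNST and 12.38 to 13.31 in nerve. Rps26, at the channel where mRNA leaves, rose by 0.74 ± 0.11, with 13.74 to 14.29 in MPNST and 12.65 to 13.43 in nerve. Neither gene's groups overlapped. Rps14 rose by 0.62 ± 0.10, and its lowest MPNST (14.31) lay just under its highest nerve pool (14.34). Rps6, the subunit protein that S6 kinases phosphorylate, did not pass the threshold, with a difference of -0.0042 ± 0.142. Rps27 differed by 0.20 ± 0.27 over all arrays, by 0.90 within the high-background arrays (limma adjusted p = 0.0118) and by 0.36 within the low-background arrays (limma adjusted p = 0.225). Both high-background nerve pools, at 11.85 and 12.26, were BDIX.BDIV-Mss4a, and only 1 MPNST was, so that the 0.90 mixes strain with tissue.

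Brightness was compared as well, because quantile normalization leaves the brightest probes little room. Of the 15 ribosomal protein probes with a mean level of at least 14, 12 rose and none fell, with a median difference of 0.38. Of the 47 dimmer ones 22 rose and 1 fell, with a median of 0.46. Over all 57 probes of the array at that level 23 rose and 8 fell, with a median of 0.15.

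The starts of the genes were read from RefSeq promoters of the GRCr8 assembly, where 89 of the 108 symbols had an entry, to show which members carry the pyrimidine start described above. The lines give 15 bases before and 15 bases from the annotated first transcribed base, 5′ to 3′ on the strand of the gene. Capitals mark a C at the first base followed by at least 4 more pyrimidines. The first 3 genes rose in MPNST with such a run, Rps27 has a run and did not pass the threshold, and Rps3 rose without one. The 2 forms of eEF1A and Eif4e2 follow for the factors.
Rps15 (chr7:10068101-10068130, minus strand): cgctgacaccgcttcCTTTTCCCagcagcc
Rpl31 (chr9:49143096-49143125, plus strand): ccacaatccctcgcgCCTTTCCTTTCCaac
Rps26 (chr7:1643390-1643419, minus strand): gagagccgccgggtcCTCTTTCgagtcttg
Rps27 (chr2:177964592-177964621, minus strand): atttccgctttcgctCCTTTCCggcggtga
Rps3 (chr1:163195762-163195791, minus strand): ttcctttcagcggcgcgcggcagcaagatg
Eef1a1 (chr8:88225055-88225084, minus strand): tcgccttggacgttctttttcgcaacgggt
Eef1a2 (chr3:188652619-188652648, minus strand): cgctcgggtacatctctgcagctgcgtcct
Eif4e2 (chr9:95334010-95334039, plus strand): ggcagagcggaagtcattccgtgaggcagt

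A run at the annotated first base was present in 20 of 50 ribosomal protein promoters (40%), in none of 30 initiation factor and none of 9 elongation factor promoters, and in 2.63% of all 27457 promoters of the table. Within 5 bases of the annotated start it was present in 60%, 23.3% and 55.6% of the 3 groups and in 17.0% of all promoters. For the ribosomal proteins with a run at the first base 14 of 20 rose in MPNST (median difference 0.49). Of those without one 13 of 30 rose (median 0.29), where 22.5% of all probes were called higher. Some of these 30 have a run within 5 bases of the start, and no split by that wider definition was made. A link between the run and the rise was not tested. The promoter counts describe letters at an annotated start, which can lie some bases from the start used in nerve. In the 250 bases before the start, CCGGAAG on either strand was present in 26.0% of ribosomal protein, 43.3% of initiation factor and 11.1% of elongation factor promoters against 7.74% of all promoters. CACGTG, which reads the same on both strands, was present in 6%, 16.7% and 22.2% of them against 5.795% of all.

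Among initiation factors, those that bind the mRNA cap or control eIF4E, the cap-binding subunit, are given first. Eif4e2, a cap-binding paralogue that does not join the scaffold eIF4G, had a level of 10.04 to 11.66 in MPNST (median 11.37), 9.87 in the microtumour and 8.79 to 9.92 in nerve (median 9.52). All MPNST lay above all nerve pools, and the 2 lowest tumours, at 10.04 and 10.52, were the BDIV ones. Eif4e2 rose 3.31-fold, by 1.73 ± 0.22 (limma adjusted p = 8.38e-06). Eif4e3, another paralogue, rose by 0.98 ± 0.25 with overlapping ranges, and by 0.66 with median scaling (limma adjusted p = 0.115). Eif4e itself differed by 0.47 ± 0.27 (limma adjusted p = 0.175). Its high-background MPNST (9.92 to 10.79) and low-background MPNST (8.89 to 9.30) did not overlap, and the difference from nerve was 0.53 within the high-background and -0.39 within the low-background arrays.

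Eif4ebp1, the inhibitor that holds eIF4E away from eIF4G, rose 2.92-fold, by 1.54 ± 0.25 (limma adjusted p = 0.000117). It had 8.65 to 10.72 in MPNST (median 10.13), 9.18 in the microtumour and 7.99 to 9.03 in nerve (median 8.41). Only MPNST 12, a BDIV tumour, lay inside the range of the nerve pools. Eif4ebp2, a paralogue of that inhibitor, and Eif4enif1, which carries eIF4E into the nucleus, differed by 0.083 and -0.016 and were not called.

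Of the 5 subunits of the eIF2B complex, which reloads eIF2 with GTP, 1 rose, 1 fell and 3 were not called. Eif2b1, its alpha subunit, had 9.50 to 10.89 in MPNST (median 10.34), 9.51 in the microtumour and 8.43 to 8.98 in nerve (median 8.58). It rose 3.06-fold, by 1.61 ± 0.18 (limma adjusted p = 1.85e-06), with no overlap. Eif2b3, the gamma subunit, fell by 0.50 ± 0.12, with 7.64 to 8.47 in MPNST against 8.25 to 8.75 in nerve. Its call was lost with the replicate block and over the strains with nerve pools alone. From plain group means its change was -0.65 in BDIV and 0.04 in BDIX. Eif2b2, Eif2b4 and Eif2b5 differed by -0.02, -0.08 and -0.09. Eif2ak1, the heme-regulated kinase of eIF2, fell by 0.63 ± 0.17, with 7.78 to 8.71 in MPNST against 8.10 to 9.10 in nerve. Its difference was -0.36 with background as a block (limma adjusted p = 0.0046), and it was not called within the high-background (-0.31, limma adjusted p = 0.111) or the low-background arrays (-0.41, limma adjusted p = 0.0804). Eif2s1, the subunit of eIF2 that such kinases phosphorylate, differed by -0.02 ± 0.12, but by 0.18 with background as a block (limma adjusted p = 0.0193).

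Among the other initiation factors, Eif5a, the protein that carries hypusine, rose by 1.15 ± 0.13 (limma adjusted p = 2.18e-06). It had 11.51 to 12.39 in MPNST (median 11.91), 10.13 in the microtumour and 10.36 to 11.16 in nerve (median 10.88), so that the microtumour lay below every other array. Its paralogue Eif5a2 was dim, detected in 6 of 12 MPNST, and differed by -0.10 ± 0.04 (limma adjusted p = 0.0646). Eif3d and Eif3h, subunits of the eIF3 complex, rose by 0.84 ± 0.10 and 0.40 ± 0.07, both with all MPNST above all nerve pools. The eIF3 subunit Eif3e differed by 0.08 ± 0.28. The other kept eIF3 subunits differed by 0.57 (Eif3a), 0.18 (Eif3c), -0.01 (Eif3k) and -0.39 (Eif3m). Eif1b, a paralogue of the start codon selection factor eIF1, fell by 1.09 ± 0.12 (limma adjusted p = 2.05e-06). Its level was 11.44 at the lowest and 11.80 at the median in MPNST, 12.17 in the microtumour and 12.31 to 13.31 in nerve, with every MPNST below the microtumour and the microtumour below every pool.

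Eif4a1 and Eif4a2 encode the 2 forms of the helicase that unwinds the mRNA for initiation, and their differences were of opposite sign. Over all arrays Eif4a1 differed by 0.48 ± 0.45 and was not called (limma adjusted p = 0.413), and its level differed between the background ranges. Among high-background arrays it was 9.48 to 10.33 in MPNST against 8.45 and 8.69 in nerve. Among low-background arrays it was 11.71 to 11.94 in MPNST, 11.23 in the microtumour and 10.52 to 10.81 in nerve. MPNST and nerve did not overlap within either range, with differences of 1.39 (limma adjusted p = 0.000613) and 1.16 (limma adjusted p = 0.0028), and of 1.27 with background as a block (limma adjusted p = 8.53e-07). The ranges themselves differed by -1.91 ± 0.12, high minus low background. Both high-background nerve pools were BDIX.BDIV-Mss4a and no low-background pool was, so that strain and background cannot be told apart between the pools. Eif4a2 fell by 1.10 ± 0.22 (limma adjusted p = 0.000708), with 11.36 to 12.49 in MPNST, 12.86 in the microtumour and 11.97 to 13.49 in nerve, and by 0.76 with background as a block.

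Elongation factors held the largest single difference. Eef1a2, the form of eEF1A that replaces Eef1a1 in mature neurons and in muscle, had a level of 7.25 to 10.24 in MPNST (median 9.06), 11.99 in the microtumour and 12.18 to 13.65 in nerve (median 13.34). Every MPNST and the microtumour lay below every nerve pool, and the probe was detected in 11 of 12 MPNST. Eef1a2 was 18.8-fold lower, a difference of -4.23 ± 0.44 (SE, limma adjusted p = 7.92e-07). The microtumour was lower than nerve by 1.11 and did not pass the threshold. The sensory neuron marker means were near each other in MPNST 8, 9, 10 and 2, at 7.42, 7.34, 7.36 and 7.57, and their Eef1a2 levels were 7.33, 7.25, 8.35 and 9.07. The 2 with skeletal muscle markers, MPNST 10 and 2, were the higher ones of these 4. Over the other 8 MPNST the marker means ran between 7.80 and 9.13 and Eef1a2 between 8.13 and 10.24. Of those 8, MPNST 7 and 4 had the lowest marker means, 7.80 and 8.09, with Eef1a2 at 8.13 and 8.41. The part of neuron and muscle RNA in the Eef1a2 levels was not tested, and without MPNST 2 and 10 the difference from nerve was -4.20.

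Eef1a1 differed by 0.06 ± 0.09 and 0.17 ± 0.11 on its 2 probes, and neither passed the threshold. The brighter probe had 14.25 to 14.72 in MPNST, 14.08 in the microtumour and 14.18 to 14.77 in nerve. Eef1d, a subunit of the exchange factor that reloads eEF1A, rose by 0.66 ± 0.15 (limma adjusted p = 0.0016), and Eef1akmt1, a methyltransferase of eEF1A, by 0.53 ± 0.15, both with overlapping ranges. Neither was called within the high-background arrays, with 0.34 for Eef1d and 0.30 for Eef1akmt1, or within the low-background arrays, with 0.59 and 0.44, and with median scaling Eef1akmt1 differed by 0.21 (limma adjusted p = 0.385). Eef2, the translocase, differed by 0.24 ± 0.11 (limma adjusted p = 0.107), and by 0.36 without nerve 4 (limma adjusted p = 0.00398), whose Eef2 level of 14.03 was the highest of all arrays. Eef2k, the kinase that inhibits it, fell by 0.85 ± 0.29 (limma adjusted p = 0.0249), a call that was lost when any 1 of nerve 1 to 4 was left out.

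**Figure D3:**
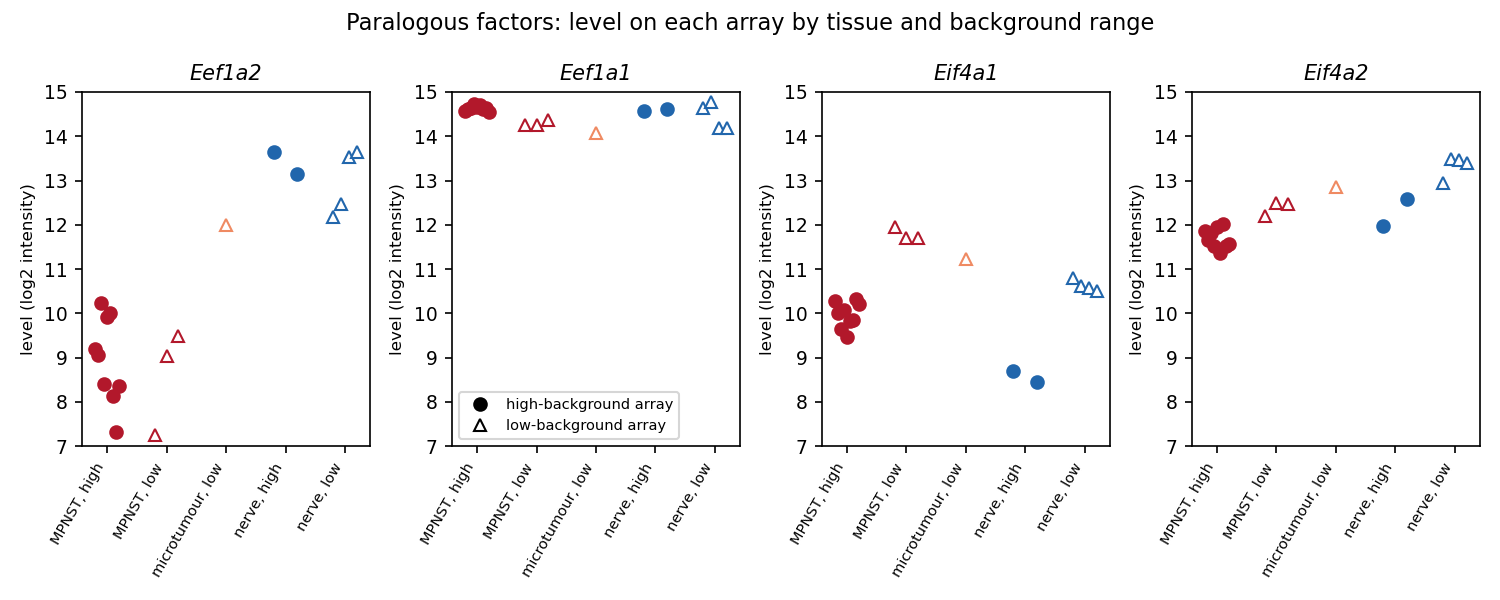
Log2 level of paralogous elongation and initiation factors on each array, by tissue and background range (filled circles high, open triangles low background). Eef1a2 lies between 7.25 and 10.24 in MPNST and between 12.18 and 13.65 in nerve, and Eif4a1 lies higher in MPNST than in nerve within each background range.

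Other genes of translation were counted by list, to be read against the 22.5% of all probes called higher and the 20.1% called lower in this comparison. Of 28 ribosome biogenesis probes, 22 rose and none fell in MPNST, also at an unadjusted p under 0.05 (median difference 0.43), and the mean level of the list was 9.15 to 9.47 in MPNST, 9.02 in the microtumour and 8.71 to 8.91 in nerve, with no overlap between MPNST and nerve. The highest were Gar1, a core protein of the snoRNPs that pseudouridylate ribosomal RNA (by 1.37 ± 0.25), and Ncl, the nucleolar protein nucleolin (by 1.29 ± 0.17). Of 57 probes of the mitochondrial ribosome 10 rose and 9 fell (median 0.05), no more in either direction than over all probes, with Mrpl23 at 1.32 ± 0.19, Mrpl22 at 0.90 ± 0.18, Mrpl49 at -1.22 ± 0.23 and Mrps7 at -0.62 ± 0.17. In BDIV against BDIX nerve 10 of these 57 were higher and 1 lower (median 0.49), where 8.01% of all probes were higher and 5.51% lower. The calls in that contrast depend on single pools, since among the 109 probes they ran between 3 and 18 with 1 pool left out, and for these 57 this was not tested. Of 16 cytoplasmic tRNA synthetases 2 rose, Tars1 by 0.62 ± 0.19 and Cars1 by 0.29 ± 0.06, and 5 fell, among them Yars1 (-0.86 ± 0.19) and Gars1 (-0.72 ± 0.16).

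Of 13 ribosome-associated and termination factors 6 rose and 2 fell. Pelo, which rescues stalled ribosomes, rose by 1.04 ± 0.18 and the release factor Etf1 by 0.83 ± 0.15, while Paip2, an inhibitor of poly(A)-binding protein, fell by 1.19 ± 0.37 and Hbs1l, the partner of Pelo, by 0.50 ± 0.13. Of 13 genes that signal to translation 5 rose and none fell, with Mycn at 2.41 ± 0.51 and Myc at 0.93 ± 0.17, both transcription factors that drive ribosome synthesis. Of 7 stress response targets Atf4 rose by 0.29 ± 0.08, and Nupr1 fell by 1.12 ± 0.38 and the dim Chac1 by 0.06 ± 0.02. Over the 6 lists 46 probes rose and 18 fell. With median scaling 15 rose over the 6 lists, fewer than the 22 ribosome biogenesis probes called higher above, so that not all of those calls were kept.

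**Figure D4:**
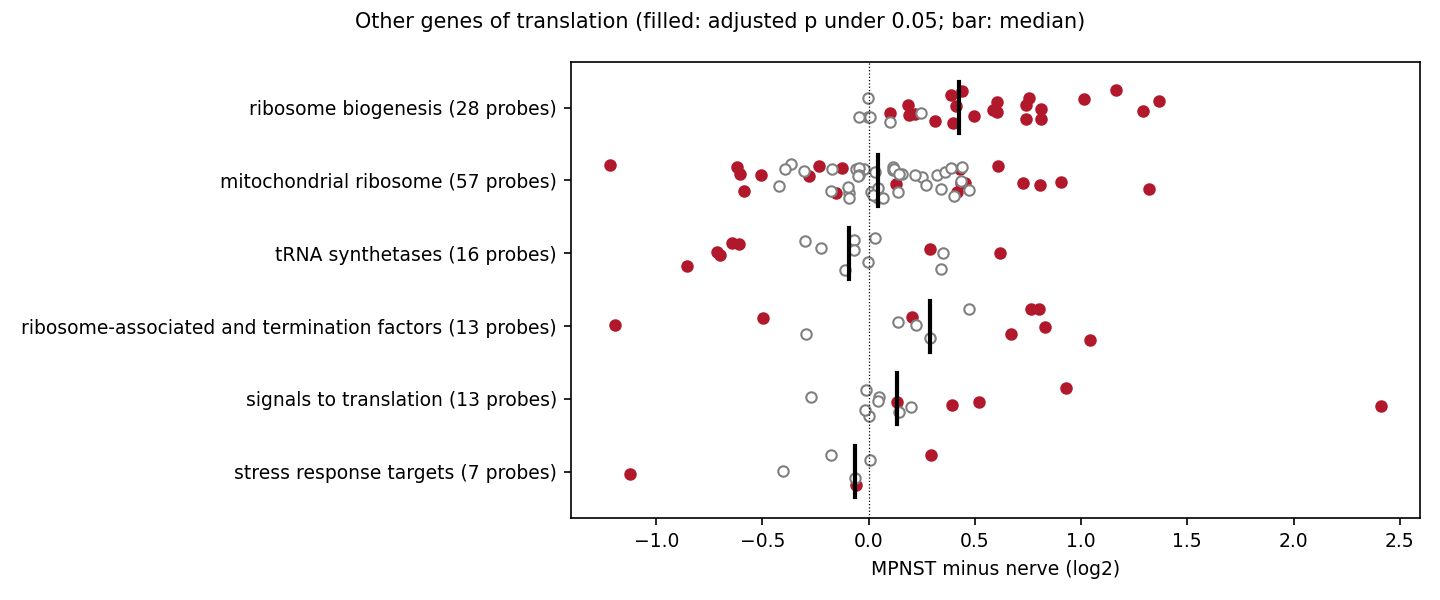
Difference between MPNST and nerve on the log2 scale for each probe of 6 lists of other translation genes, with the list median as a bar and filled points for an adjusted p under 0.05. The ribosome biogenesis median is 0.43 and the mitochondrial ribosome median 0.05.

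The microtumour was set against nerve with the spread taken from the other arrays. Of the 109 probes 5 rose and none fell in limma's test (7 were lower at an unadjusted p under 0.05), where 2.64% of all probes were called, 1.62% higher and 1.01% lower. Rpl6, a large subunit protein, was the brightest probe of the microtumour array at the normalized ceiling of 15.29, against 13.75 to 14.26 in nerve. It rose by 1.24 ± 0.20 (limma adjusted p = 0.0019). Rpl35 was 14.19 in the microtumour against 12.32 to 13.29 in nerve and rose by 1.18 ± 0.28. Rpl29 (14.99 against 13.24 to 14.01) rose by 1.14 ± 0.28, and the eIF3 subunits Eif3d and Eif3h rose by 0.93 ± 0.23 and 0.65 ± 0.16. The median differences were 0.33 for the large subunit, 0.50 for the small subunit, -0.02 for initiation factors and 0.03 for elongation factors. The calls ranged from 0 with the authors' processed values (16 at an unadjusted p under 0.05) to 10 with background as a block.

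Against MPNST, 1 probe was higher and 4 were lower in the microtumour, where 2.54% of all probes were called, 1.64% higher and 0.900% lower. Rpl6 was higher by 0.86 ± 0.19, but lower by 0.24 with the authors' processed values (limma adjusted p = 0.672). Eif5a was lower by 1.81 ± 0.27 (limma adjusted p = 0.0012), with 10.13 in the microtumour against 11.51 to 12.39 in MPNST. Rpl15 was lower by 1.08 ± 0.23, the dimmer Eef1a1 probe by 0.99 ± 0.23 and Eif2s2, a subunit of eIF2, by 0.97 ± 0.22. The microtumour lay above every MPNST for Rpl35 and Rpl29 and below every MPNST for Eif5a and Rpl15, and for Rpl6, at the ceiling, no rank is read.

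Strain was compared in nerve and in MPNST, with sex as a covariate. Rpl30, a large subunit protein on chromosome 7, had levels that went with the strain, and they are given as a description. They are signals of 1 probe, and whether the sequence under that probe differs between the strains was not tested. Its level was 12.67 and 12.81 in BDIV MPNST, 10.33 to 11.88 in the 7 F1 hybrid MPNST, 7.40 in the BDIX.BDIV-Mss4a MPNST, and 7.34 and 10.80 in the 2 MPNST labelled BDIX. It was 7.58 in the BDIX.BDIV-Mss4a microtumour. In nerve it was 11.88 and 11.91 in BDIV pools, 7.27 and 7.26 in BDIX.BDIV-Mss4a pools, and 7.46 and 7.32 in BDIX pools. Every array labelled BDIV or F1 hybrid had a level of at least 10.33, and every array labelled BDIX or BDIX.BDIV-Mss4a one of at most 7.58, except MPNST 4. The gap between the lowest of the 4 BDIV arrays and the highest of the 4 pools of BDIX and BDIX.BDIV-Mss4a was 4.41 on the log2 scale, the widest of the 13116 probes.

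Raw Rpl30 signals were 6309 and 6433 in BDIV nerve against 181 and 104 in BDIX nerve, and the probe was detected in 4 of the 6 nerve pools. The F1 hybrid tumours on high-background arrays (10.33 to 11.20) lay below the BDIV tumours, and the 1 F1 hybrid tumour on a low-background array (11.88) lay closest to them. Over both tissues BDIV exceeded BDIX by 4.03 ± 0.59 with MPNST 4 among the BDIX tumours, and the probe was called without MPNST 4 too. Between MPNST and nerve Rpl30 differed by 1.77 ± 0.94 over all arrays, a value that mixes strain and tissue, because the F1 hybrid had no nerve pool. From plain group means the change was 0.84 in BDIV and 1.68 in BDIX, with MPNST 4 among the BDIX tumours. For BDIX.BDIV-Mss4a the level was 7.40 in the MPNST and averaged 7.27 in nerve.

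**Figure D5:**
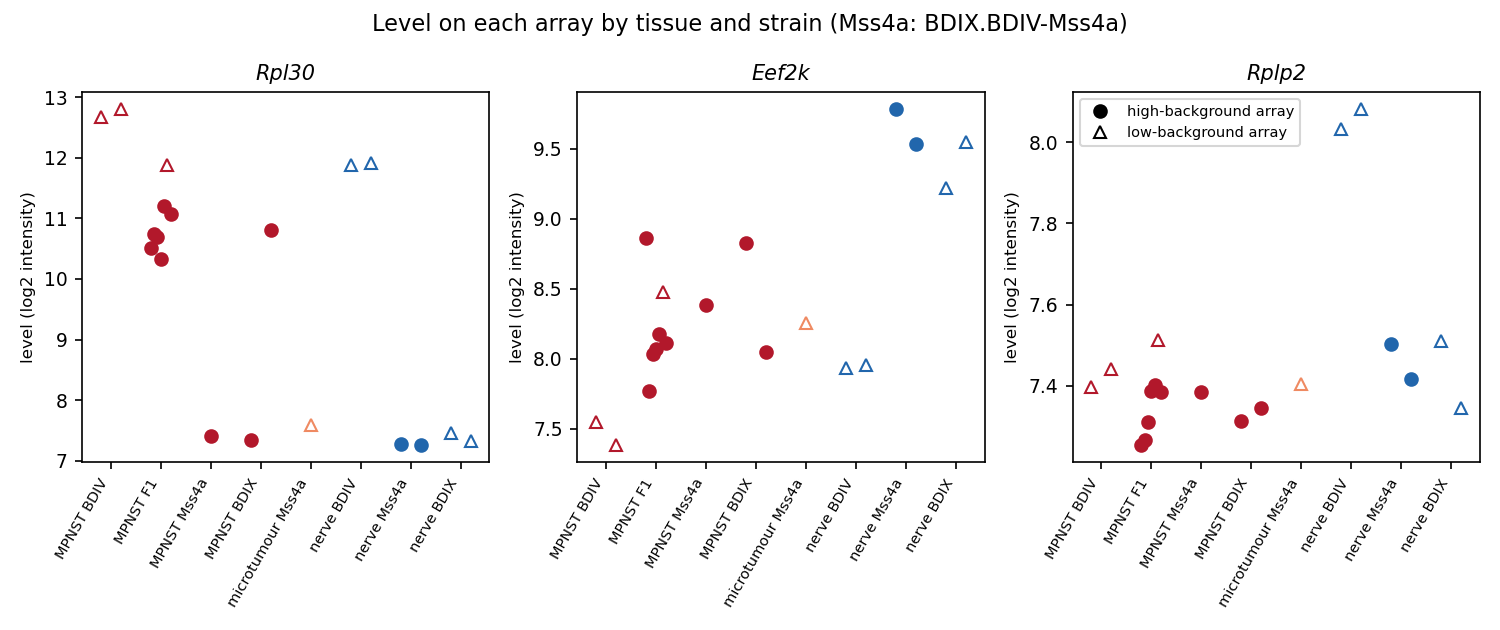
Log2 level of Rpl30, Eef2k and Rplp2 on each array, by tissue and strain (filled circles high, open triangles low background). The MPNST labelled BDIX at 10.80 for Rpl30 is MPNST 4, and the 2 BDIV nerve pools of Rplp2 at 8.03 and 8.08 lie above all other arrays.

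Between BDIV and BDIX nerve, all on low-background arrays, 6 of the 109 probes were higher in BDIV and 3 lower, where 13.5% of all probes were called, 8.01% higher and 5.51% lower. Eef2k was lower in BDIV by 1.44 ± 0.31 (limma adjusted p = 0.0092), with 7.93 and 7.95 in BDIV pools against 9.22 and 9.55 in BDIX pools. In tumours it was 7.55 and 7.38 in BDIV MPNST, the lowest of the 12, against 8.83 and 8.05 in those labelled BDIX. Over both tissues the difference was -1.16 ± 0.22 (limma adjusted p = 0.0063), and Eef2k was the only member besides Rpl30 called there with a difference of at least 1. Rplp2 was higher in BDIV nerve by 0.63 ± 0.07 (limma adjusted p = 7.65e-05), with 8.03 and 8.08 in BDIV pools against 7.51 and 7.35 in BDIX pools, while its BDIV tumours, at 7.40 and 7.44, lay among the other tumours. Eif4b, which assists the eIF4A helicase, was lower in BDIV nerve by 0.98 ± 0.17 (limma adjusted p = 0.0029), with 9.78 and 9.94 in BDIV pools against 10.63 and 11.06 in BDIX pools. Rpl22l1 (0.91 ± 0.19), Eif1b (0.75 ± 0.14) and Eif5a (0.47 ± 0.10) were higher and the brighter Eef1a1 probe (-0.51 ± 0.11) was lower, and each of these calls, like that of Eef2k, was lost without at least 1 of the 4 pools. The number called ran from 3 without nerve 6 to 18 without nerve 3, and was 5 without nerve 4.

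Over both tissues 3 probes were higher and 7 lower in BDIV than in BDIX, where 12.4% of all probes were called, 6.98% higher and 5.38% lower. Rpl7l1 was lower by 0.80 ± 0.15, Eif3a, the largest eIF3 subunit, by 0.55 ± 0.13, and both Eef1a1 probes were lower, by 0.43 ± 0.08 on the brighter one. The Eif3a call was lost in 5 of 8 fits that left out 1 array, MPNST 3, MPNST 4, MPNST 11, nerve 4 or nerve 6. Rpl7l1, Eif3a and the Eef1a1 probes also differed between the background ranges with the tissue held constant, by 0.89, 0.47, 0.27 and 0.30, high minus low. With background as a block 5 probes in place of 10 were called over both tissues.

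Between BDIX.BDIV-Mss4a and BDIX nerve 4 probes were higher and 2 lower, where 3.96% of all probes were called, 1.94% higher and 2.02% lower, and here strain and background cannot be told apart. Eif5a was higher in BDIX.BDIV-Mss4a by 0.69 ± 0.10 (limma adjusted p = 0.0043), Rpl31 by 1.07 ± 0.26, Rps24 by 0.75 ± 0.18 and Rps3 by 0.61 ± 0.13, and Rps27 was lower by 1.48 ± 0.29. The number called was 3 without nerve 4, 5 or 6, and the Rps24 call was lost without any 1 of the 8 BDIV and BDIX arrays. Without nerve 4 the calls of Rpl31, Rps3 and Rpl3 were lost too, the Rpl31 call was also lost without MPNST 3, MPNST 4, nerve 5 or nerve 6, and that of Rpl3 without nerve 3, 5 or 6. The Rps27 call was lost without nerve 3. Rps27, Rpl31 and Rps24 also differed between the background ranges with the tissue held constant, by -1.01, 0.83 and 0.55. Rpl3 was lower by 0.21 ± 0.05 and higher by 0.44 with median scaling (limma adjusted p = 0.314). Between BDIV and BDIX MPNST 2 probes were higher and 7 lower, where 5.34% of all probes were called, 2.61% higher and 2.73% lower, and 3 in all were called without MPNST 4 and 1 without MPNST 3. Eif4e2 was lower in BDIV by 1.41 ± 0.20 (limma adjusted p = 0.0059), Rpl31 by 1.41 ± 0.27, Rpl7l1 by 1.02 ± 0.21 and Eif2b3 by 0.71 ± 0.12, and Eif2ak1 was higher by 0.84 ± 0.18. Without MPNST 4 the calls of Rpl31, Rpl7l1 and Eif2ak1 were lost, without MPNST 11 those of Rpl7l1, Eif2b3 and Eif2ak1, and without MPNST 12 those of Rpl31 and Eif2ak1. Without MPNST 3 those of Rpl31, Rpl7l1, Eif2b3 and Eif2ak1 were lost. These 5 differed between the background ranges too, and strain and background cannot be told apart among these 4 tumours. The change between MPNST and nerve differed between BDIV and BDIX for 11 probes, each with a lower value in BDIV (5 were higher at an unadjusted p under 0.05), where 11.4% of all probes were called, 4.76% higher and 6.69% lower. The number ran from 6 without nerve 6 to 22 without nerve 3, and was 7 without nerve 4, and the BDIV and BDIX tumours enter it with the same difference in background.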

How the data were processed

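RNA of 12 MPNST, 1 microtumour and 6 nerve pools was measured on Illumina rat expression arrays. The deposited raw table holds the authors' summarized signal intensity and a detection p-value per probe, and the second deposited table holds the authors' processed values. BeadStudio 3.0 is named, per the submitters' processing notes, and the normalization of the processed values is not given in the sources used here. Among the processed columns, 17 followed their own sample's raw signal, and those of nerve 5 and nerve 6 followed each other's. These values were used only as an alternative, floored at 1 and put on a log2 scale with 16 added.

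The deposited intensity values were corrected for background and quantile normalized with neqc of limma 3.58.1 in R 4.3.3 (offset 16), which gives log2 levels. Probes with a detection p under 0.05 on at least 3 of 19 arrays were kept. Tissue was tested over all 19 arrays (16 residual degrees of freedom) and strain in a tissue-by-strain fit with sex (10 residual degrees of freedom), with limma's moderated test and Benjamini-Hochberg adjustment over all 13116 kept probes at 0.05. The scripts were tested on simulated data. The number of arrays limits the precision, and the p-values measure the spread between these tumours and pools.

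Genes were named from the platform annotation. Named were, per class, up to 5 called probes with the largest differences in each direction and a set of paralogues and regulators; in the microtumour and strain comparisons up to 5 in each direction; in other lists up to 2. Rpl7, Eif3a, Eif3c, Eif3d, Eif3h, Eif3k, Eif3m, Eif2b2, Eif2b4, Eif2b5, Eif4ebp2 and Eif4enif1 in MPNST were added after their values were seen. The members and lists were chosen with earlier results of these data known. Alternatives were median scaling, the authors' values, other detection filters, background, replicate and quality-weight terms, and subsets of arrays.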

Additional observations from a re-analysis of the deposited data

Results flagged for a closer look

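Nerve 4, the female BDIX pool, stood apart from the other 5 nerve pools for 5 named probes, judged by the gap to the nearest pool as a share of the range of the 6 pools. Its level was lower for Rpl27 (12.42 in nerve 4 against 13.05 to 13.34 in the others), Rps26 (12.65 against 13.17 to 13.43), Rps14 (13.55 against 14.07 to 14.34) and Eef1akmt1 (9.01 against 9.72 to 10.11), and higher for Eef2 (14.03 against 13.14 to 13.46). Chance flags about 1 in 20 groups by this rule. The 5 flags share 1 array, so that their number cannot be set against that rate.

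The change between MPNST and nerve differed between BDIV and BDIX in limma's interaction test for 5 named probes. Adjusted for sex, the change in BDIV minus that in BDIX was -1.93 for Rpl31, -1.92 for Eif4e2, -1.14 for Rps29, -1.19 for Rpl22l1 and -1.13 for Eif1b. From the plain group means, not adjusted for sex, the changes in BDIV and in BDIX were 0.17 and 1.98 for Rpl31, 0.69 and 2.48 for Eif4e2, -0.18 and 0.82 for Rps29, -0.88 and 0.28 for Rpl22l1, and -1.73 and -0.66 for Eif1b. The BDIV tumours were low-background and the BDIX tumours high-background arrays, so that strain and background cannot be told apart here. The Rpl22l1 call was lost without MPNST 4, nerve 4 or nerve 6, and the Rps29 call without MPNST 3, MPNST 11 or nerve 6.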

How the results depend on the processing

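Of the alternatives for named probes in MPNST against nerve, 1156 kept direction and side of the threshold, 64 lost the call, 17 gained one and 3 reversed. With median scaling 7 large subunit, 5 small subunit, 7 factor and 15 list probes were higher in MPNST, and 2 members were called in microtumour against nerve, 2 in microtumour against MPNST, 22 in BDIV against BDIX nerve and 2 in BDIV against BDIX MPNST, while Rpl3 in BDIX.BDIV-Mss4a against BDIX nerve was 0.44. With the authors' values limma called 0 in microtumour against nerve (16 at an unadjusted p under 0.05), 1 in microtumour against MPNST with Rpl6 at -0.24, 2 in BDIV against BDIX nerve, 0 in BDIX.BDIV-Mss4a against BDIX nerve (24 at an unadjusted p under 0.05) with Rpl3 at 0.15, 5 in BDIV against BDIX MPNST, 3 over both tissues and 2 for the difference in tissue change. Without a detection filter 1 member was called in microtumour against nerve, with array weights 8 there and 8 against MPNST, and without the 2 muscle-marker MPNST, chosen after seeing the data, 3 against nerve.

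With background as a block Eif2s1 was 0.18, and the counts were 10 and 8 for the microtumour against nerve and against MPNST, 14 for BDIV and 1 for BDIX.BDIV-Mss4a against BDIX nerve, 1 for BDIV against BDIX MPNST and 5 over both tissues. Within high-background arrays 6 list probes were lower and Eif2s1 was 0.29. Within low-background arrays, which are fewer, 5 large subunit, 3 small subunit and 7 factor probes were higher, 12 list probes higher and 10 lower, and Rpl3 was -0.052. Over strains with nerve pools alone 12 large and 9 small subunit probes were higher, 3 factor probes lower, and 27 list probes higher and 7 lower. The cause of the other shifts was not tested.

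With the replicate block, over 6 pairs, 41 members were called against 54 without it, 12 large subunit probes were higher and 7 list probes lower. The paired numbers are only numbers: correlations of deviations ran between -0.30 and 0.21, and 0 of 6 nerve pools matched best the MPNST of the same number.

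Leaving out 1 array at a time gave 17 to 21 large and 12 to 14 small subunit probes higher, 12 to 14 factor probes higher and 5 to 7 lower, and 41 to 46 list probes higher and 11 to 20 lower. The members called were 3 to 18 in BDIV and 3 to 9 in BDIX.BDIV-Mss4a against BDIX nerve, 1 to 13 in BDIV against BDIX MPNST, 6 to 12 over both tissues and 6 to 22 for the difference in tissue change. Array signals at the normalized ceiling or near background limit Rplp0, Rpl6, Rplp2 and Eif5a2.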
